A study of Homo sapiens with 4 samples.

Results

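HOX genes encode homeodomain transcription factors and lie in 4 clusters, HOXA on chromosome 7, HOXB on chromosome 17, HOXC on chromosome 12 and HOXD on chromosome 2. The set described here was chosen by symbol and holds 38 HOX genes of the 21865 gene symbols in the tables, 10 in HOXA, 10 in HOXB, 9 in HOXC and 9 in HOXD. RNA sequencing was done on 4 human acute myeloid leukemia lines, THP-1, MonoMac-1, HL60 and KG1a, with 1 library of each line, grown without a stated treatment or genetic change. THP-1 (its label has an unexplained suffix, tr) and MonoMac-1 were both derived from monocytic leukemias and hold MLL-AF9, a fusion of the MLL gene with AF9. HL60 is a promyelocytic line and KG1a an immature, CD34-positive line, and neither carries that fusion. These features of the lines are general knowledge. The series title names MLL-AF9, while the sample labels give only the line. Both MLL-AF9 lines are also the monocytic ones, so the fusion, the lineage and the history of each line cannot be told apart.

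Within a cluster the genes are numbered from the 3′ side (anterior, low numbers) to the 5′ side (posterior, high numbers), and in the embryo this order follows the order in which they are switched on along the body axis. Genes with the same number in different clusters are paralogs and bind similar DNA, often with the cofactors of the MEIS and PBX families. In blood, HOXA genes are active in stem and progenitor cells and fall as cells mature. Leukemias with MLL fusions are known for keeping HOXA9 and its neighbours on, and HOXA9 with MEIS1 can drive myeloid leukemia in mice.

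Depth differed between the libraries. The deposited coverage summed to 6.04 gigabases on genes in THP-1 cells, 13.6 in MonoMac-1 cells, 8.72 in HL60 cells and 10.2 in KG1a cells. Values are RPKM, reads per kilobase of gene scaled to the mapped reads of the library, so levels of different genes can be set side by side per length. Intervals in brackets are exact 95% Poisson intervals on the deposited coverage, counting 200 bases as 1 fragment, a size read from the values. They cover counting error only, and with 1 library per line nothing shows the spread between cultures of a line. Marker lists were read against the lines' names. The 7 monocytic markers summed to 967 RPKM in THP-1 cells and 5252 in MonoMac-1 cells, against 26.8 in HL60 cells and 5.11 in KG1a cells. LYZ gave the largest part in both monocytic lines, 510 RPKM in THP-1 cells and 4837 in MonoMac-1 cells. CD14 was low, at 1.28 RPKM in THP-1 cells and 4.13 in MonoMac-1 cells. ITGAM did not separate the lines, since its KG1a level lay above its MonoMac-1 level of 1.75 RPKM. Every marker but ITGAM was higher in both monocytic lines than in HL60 and KG1a. The stem and progenitor markers summed to 13.4 RPKM in THP-1 cells, 7.88 in MonoMac-1 cells, 48.1 in HL60 cells and 621 in KG1a cells. The 5 granulocytic markers summed to 6493 RPKM in THP-1 cells, 6913 in MonoMac-1 cells, 5596 in HL60 cells and 23.9 in KG1a cells. In promyelocytic HL60 that sum was carried by MPO (4610 RPKM), and ELANE, AZU1, PRTN3 and CTSG were lower there than in both monocytic lines. CD34 marked KG1a (494 RPKM), while KIT was highest in THP-1 (9.06 RPKM) and near 0 in KG1a. T and NK cell markers summed to 16.1 to 160 RPKM by line, B cell markers to 0.503 to 6.62 RPKM, and stromal and epithelial markers each to under 1 RPKM. In bulk RNA, fewer cells with a transcript and less of it per cell cannot be told apart.

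The HOXA cluster supplied most of the HOX message, and the lines differed in which other clusters joined it. Summed over the 10 HOXA genes, the level was 74.2 RPKM in THP-1 cells, 132 in MonoMac-1 cells, 28.7 in HL60 cells and 185 in KG1a cells. These sums were 95.5% of the HOX total in THP-1 cells, 100.0% in MonoMac-1 cells, 54.1% in HL60 cells and 82.5% in KG1a cells. The rest was mainly HOXB in KG1a, and HOXC and HOXD in HL60. HOXB summed to 3.17 RPKM in THP-1 cells, 0.0270 in MonoMac-1 cells, 2.27 in HL60 cells and 39.0 in KG1a cells, which was 17.4% of the KG1a total. HOXC summed to 0.331 RPKM in THP-1 cells, 0 in MonoMac-1 cells, 13.3 in HL60 cells (25.1% of the HL60 total) and 0.0530 in KG1a cells. HOXD summed to 0 in both THP-1 and MonoMac-1, 8.74 RPKM in HL60 cells (16.5%) and 0.230 in KG1a cells. HL60 was thus the line with the lowest HOX total, 53.1 RPKM, and the one in which all 4 clusters had a gene at 1 RPKM or more, HOXB only through HOXB2 at 1.02 RPKM (0.810 to 1.27). Its interval holds 1.04 RPKM, the share of its KG1a level described further on for the HL60 library, and without that share HL60 had no HOXB gene at 1 RPKM. MonoMac-1 had HOXA alone at that level. The totals in the other lines were 77.7 RPKM in THP-1 cells, 132 in MonoMac-1 cells and 225 in KG1a cells.

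**Figure D1:**
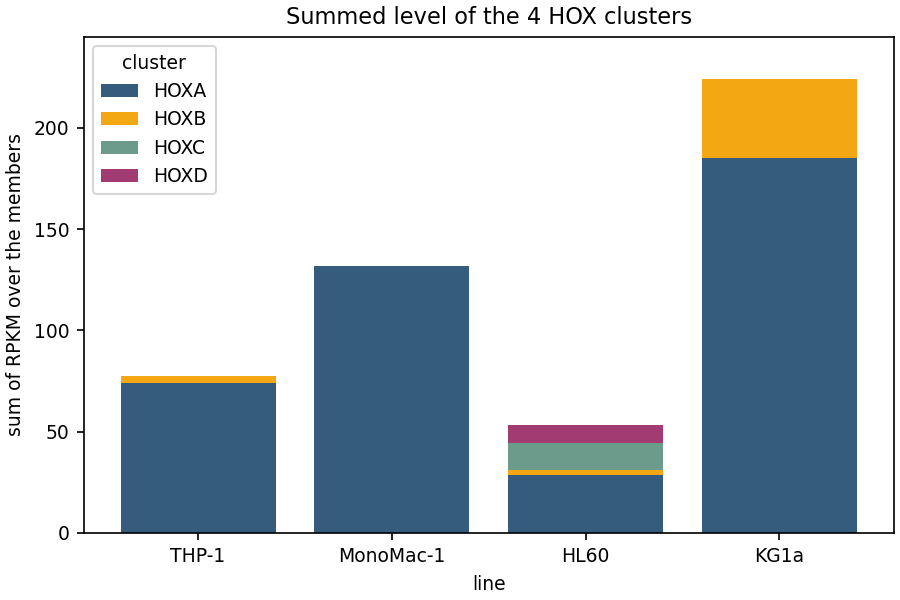
Stacked bars give the sum of RPKM over the members of each HOX cluster (y axis) in each line (x axis), 1 library per line. HOXA fills nearly the whole bar in THP-1 and MonoMac-1, HOXB adds 39.0 RPKM in KG1a cells, and HOXC and HOXD add 13.3 and 8.74 RPKM in HL60 cells.

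Of the 38 genes, 15 reached 1 RPKM in at least 1 line, the level used here to call a gene measured, while 59.3% of all symbols did. They were all 10 HOXA genes, HOXB2, HOXB4, HOXC6, HOXC10 and HOXD13. By line, 7 HOX genes reached 1 RPKM in THP-1 cells (51.9% of all symbols), 7 in MonoMac-1 cells (51.4%), 11 in HL60 cells (48.3%) and 10 in KG1a cells (50.1%). HOXA5, HOXA7, HOXA9 and HOXA10 did so in all 4 lines by the listed values. With the KG1a share described further on taken off, HOXA9 was left at 0.121 RPKM in HL60 cells. The genes listed at 0 numbered 19 in THP-1 cells, 25 in MonoMac-1 cells, 6 in HL60 cells and 19 in KG1a cells. HOXB1, HOXB8, HOXD1 and HOXD4 were listed at 0 in every line. The 23 genes below 1 RPKM in all lines had their highest value at 0.984 RPKM, HOXB3 in THP-1. HL60 thus had values above 0 for HOX genes that the other lines listed at 0, in a library that was neither the deepest nor the shallowest. Some of these, HOXB5, HOXD3, HOXD8, HOXD10 and HOXD11, lay under the level of 3 fragments, where an order between lines was not detectable. The share of all symbols listed at 0 was not counted, so these counts are not read as particular to HOX genes.

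**Figure D2:**
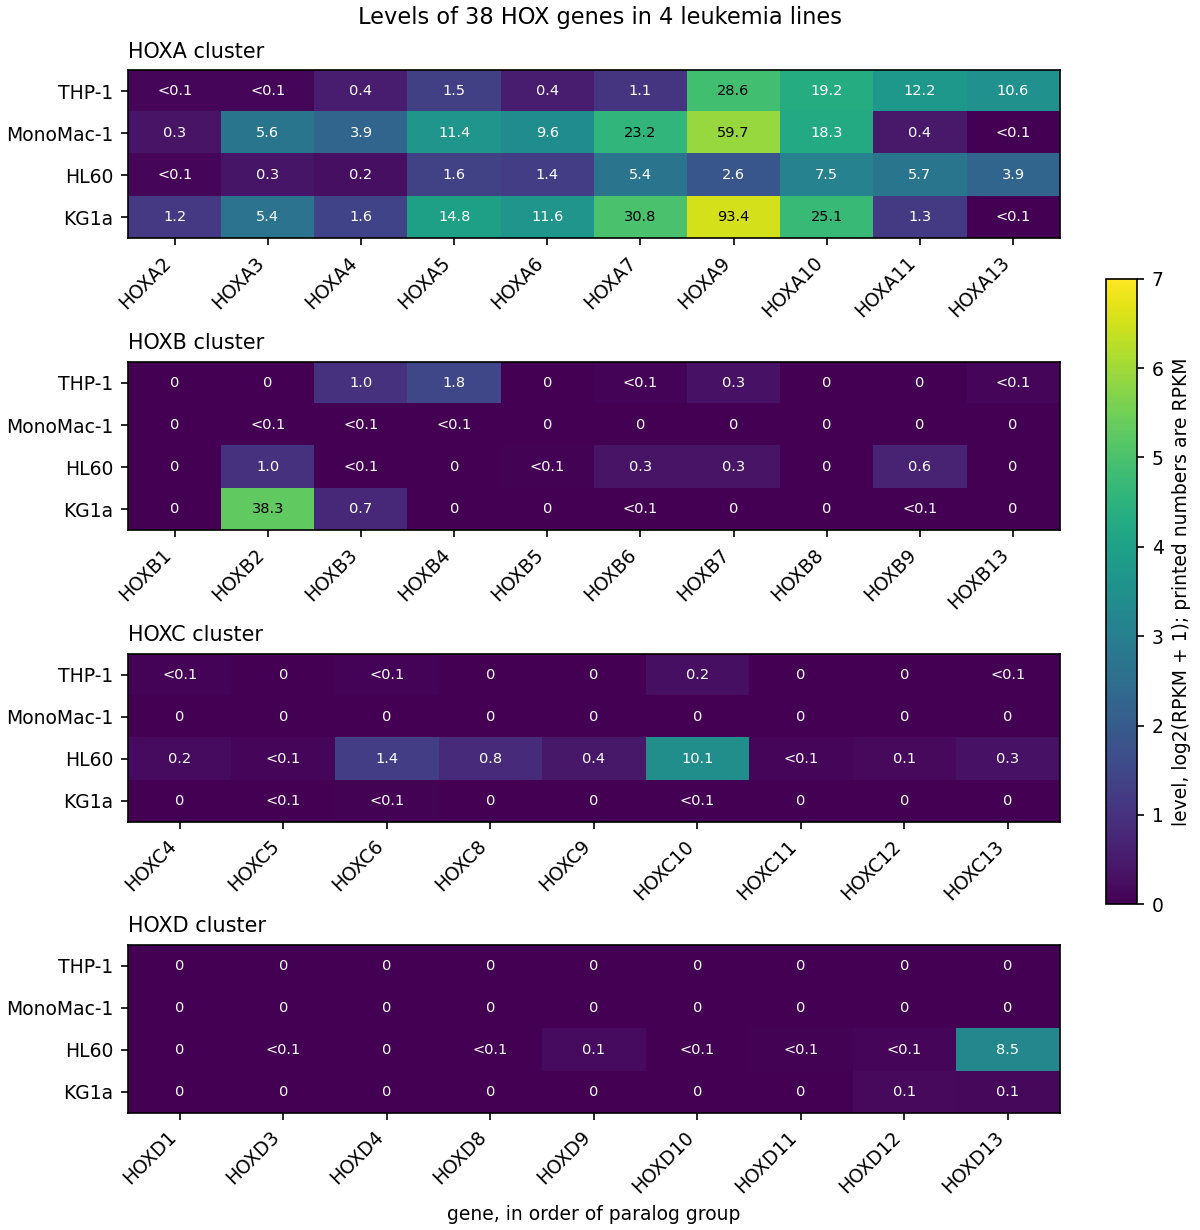
Colour gives log2(RPKM + 1) of each of the 38 genes (columns, by paralog number) in each line (rows), with the RPKM printed in each cell. HOXA runs through all 4 lines, HOXB2 stands at 38.3 RPKM in KG1a cells, and HOXC10 and HOXD13 stand at 10.1 and 8.47 RPKM in HL60 cells.

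The HOXA genes made 3 runs along the cluster, HOXA2 to HOXA7, HOXA9 with HOXA10, and HOXA11 with HOXA13, and the lines differed by run. HOXA2 to HOXA7 summed to 3.65 RPKM in THP-1 cells, 53.9 in MonoMac-1 cells, 9.02 in HL60 cells and 65.5 in KG1a cells. HOXA9 with HOXA10 summed to 47.8 RPKM in THP-1 cells, 78.0 in MonoMac-1 cells, 10.2 in HL60 cells and 118 in KG1a cells. HOXA11 with HOXA13 summed to 22.7 RPKM in THP-1 cells, 0.408 in MonoMac-1 cells, 9.50 in HL60 cells and 1.27 in KG1a cells. The 5′ end of the cluster was therefore high in THP-1 and HL60, and the 3′ genes were high in MonoMac-1 and KG1a. As shares of each line's own HOXA sum, HOXA2 to HOXA7 made up 4.92% in THP-1 cells, 40.7% in MonoMac-1 cells, 31.4% in HL60 cells and 35.4% in KG1a cells. HOXA11 with HOXA13 made up 30.6% in THP-1 cells, 0.308% in MonoMac-1 cells, 33.1% in HL60 cells and 0.685% in KG1a cells. These runs were drawn after the values were seen, and no test was made of them.

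**Figure D3:**
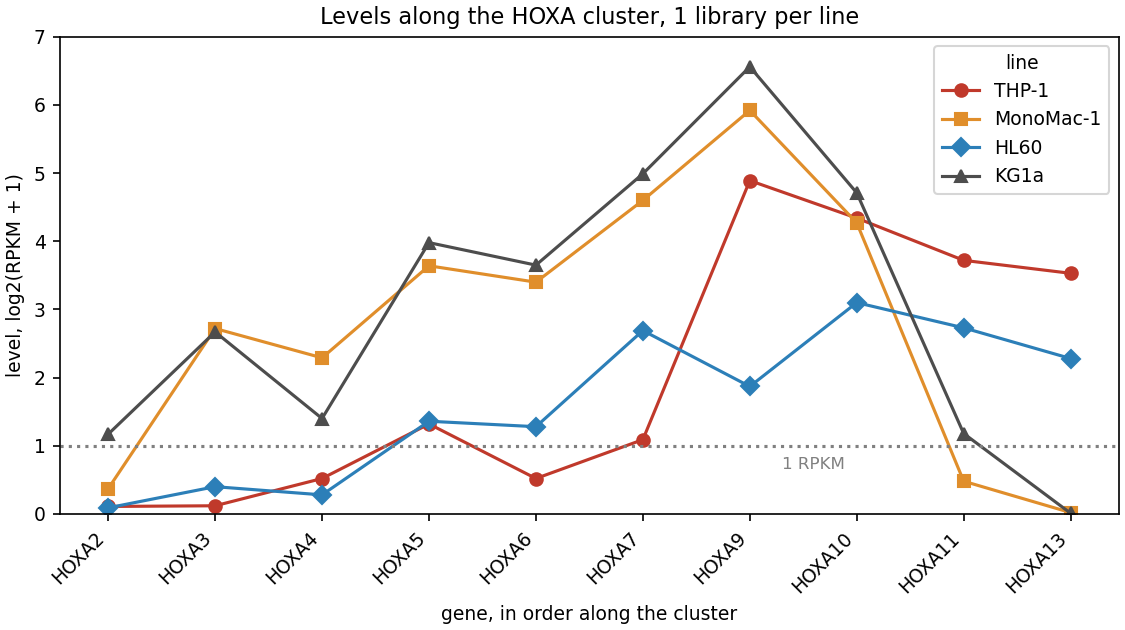
Points give log2(RPKM + 1) (y axis) of the 10 HOXA genes in their order along the cluster (x axis), 1 line of points per cell line, with 1 RPKM dotted. MonoMac-1 and KG1a climb to HOXA9 (59.7 and 93.4 RPKM) and drop at HOXA11 (0.393 and 1.26 RPKM), while THP-1 is low up to HOXA7 (1.12 RPKM) and stays high through HOXA13 (10.6 RPKM).

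The sequences just before the start sites of genes at the turning points of this profile are shown so that the neighbouring promoters can be compared. They are the 250 bases before the annotated start, from RefSeq on GRCh38.p14, 5′ to 3′ along the gene, and capitals mark a match to a searched motif.
HOXA7, chr7:27156676-27156925, - strand: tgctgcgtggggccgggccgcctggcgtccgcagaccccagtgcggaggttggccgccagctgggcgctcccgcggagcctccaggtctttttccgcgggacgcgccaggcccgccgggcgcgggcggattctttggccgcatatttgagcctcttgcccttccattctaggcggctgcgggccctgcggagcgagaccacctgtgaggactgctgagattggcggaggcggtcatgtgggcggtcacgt
HOXA9, chr7:27165538-27165787, - strand: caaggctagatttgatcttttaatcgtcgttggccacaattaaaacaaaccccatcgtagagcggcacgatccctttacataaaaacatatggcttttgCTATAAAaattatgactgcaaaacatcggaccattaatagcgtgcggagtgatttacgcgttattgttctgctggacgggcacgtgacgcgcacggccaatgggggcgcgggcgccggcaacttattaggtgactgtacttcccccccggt
HOXA10, chr7:27179862-27180111, - strand: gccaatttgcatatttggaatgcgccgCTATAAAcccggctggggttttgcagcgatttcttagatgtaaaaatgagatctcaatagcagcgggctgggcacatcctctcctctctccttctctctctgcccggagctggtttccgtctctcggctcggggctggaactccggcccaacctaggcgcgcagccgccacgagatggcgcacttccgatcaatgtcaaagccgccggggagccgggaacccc
HOXA11, chr7:27185233-27185482, - strand: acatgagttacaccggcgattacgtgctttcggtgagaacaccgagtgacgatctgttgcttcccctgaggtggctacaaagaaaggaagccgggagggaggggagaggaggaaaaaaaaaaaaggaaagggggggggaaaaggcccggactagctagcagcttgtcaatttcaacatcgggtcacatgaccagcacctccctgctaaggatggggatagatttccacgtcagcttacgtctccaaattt
HOXA13, chr7:27200092-27200341, - strand: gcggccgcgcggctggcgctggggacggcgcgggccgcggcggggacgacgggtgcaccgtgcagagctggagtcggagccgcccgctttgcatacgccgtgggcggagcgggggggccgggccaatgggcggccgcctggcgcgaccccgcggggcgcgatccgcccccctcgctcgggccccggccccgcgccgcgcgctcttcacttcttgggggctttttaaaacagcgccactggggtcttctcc
The motifs searched, on both strands, were TGACAG (bound by MEIS proteins), TGATTNAT (bound by PBX with HOX) and TTTATNG (the core read by CDX proteins and posterior HOX proteins). TTTATNG occurred once before HOXA9 and once before the HOXA10 start shown, both times on the opposite strand as CTATAAA, and 8.93% of the 35116 promoters in the table hold it. TGACAG and TGATTNAT, held by 13.0% and 2.48% of all promoters, were not in these 5 windows. The CpG count was 28 before HOXA7, 20 before HOXA9, 19 before this HOXA10 start, 11 before HOXA11 and 40 before HOXA13, where the median of all promoters was 11 (quartiles 3 and 23). HOXA11 and HOXA13, which were high in the same lines, thus had windows of very different CpG count. A second HOXA10 start, at chr7:27174321-27174570 and not shown, held none of the searched motifs and had a CpG count of 24. The table held promoters of 20 of the 38 genes, 27 in all. A match of letters is a description and does not show binding. These coordinates belong to another build than the hg19 positions of the expression tables.

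HOXA9, the HOX gene most closely tied to myeloid leukemia, was the highest HOX gene in 3 lines. It stood at 28.6 RPKM (27.4 to 29.9) in THP-1, 59.7 (58.5 to 60.9) in MonoMac-1, 2.65 (2.34 to 2.99) in HL60 and 93.4 (91.7 to 95.1) in KG1a. The order KG1a, MonoMac-1, THP-1, HL60 has no overlapping intervals, and the highest value belongs to a line without MLL-AF9. Among all 21865 symbols HOXA9 stood at percentile 88.7 in THP-1 cells, 94.3 in MonoMac-1 cells, 58.3 in HL60 cells and 97.3 in KG1a cells. The interval of the HL60 value holds 2.53 RPKM, the KG1a share described further on. The HL60 percentile, and the HL60 ratios to HOXA9 given below, carry that limit. In hg19 the HOXA9 entry covers chr7:27202057-27205149.

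HOXA10, its 5′ neighbour, which acts in uterine development and in myeloid growth, had the smallest ratio of highest to lowest RPKM of the 10 HOXA genes, 3.32. On the log2(RPKM + 1) scale HOXA2, which is at 1.25 RPKM or less in every line, spanned less (1.08, against 1.61 for HOXA10). HOXA10 stood at 19.2 RPKM (18.4 to 20.1) in THP-1, 18.3 (17.8 to 18.9) in MonoMac-1, 7.55 (7.12 to 7.99) in HL60 and 25.1 (24.4 to 25.8) in KG1a. The intervals of THP-1 and MonoMac-1 overlap, and HL60 is again the lowest. The ratio of HOXA9 to HOXA10 was 1.49 in THP-1 cells, 3.26 in MonoMac-1 cells, 0.351 in HL60 cells and 3.72 in KG1a cells, so HL60 was the line in which HOXA10 exceeded HOXA9.

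HOXA7, which is commonly switched on together with HOXA9 in MLL leukemias, followed HOXA9 in MonoMac-1 and KG1a but not in THP-1. It stood at 1.12 RPKM (0.889 to 1.40) in THP-1, 23.2 (22.4 to 23.9) in MonoMac-1, 5.44 (4.99 to 5.92) in HL60 and 30.8 (29.9 to 31.8) in KG1a. HOXA7 was 0.0393 of HOXA9 in THP-1 cells, 0.388 in MonoMac-1 cells, 2.05 in HL60 cells and 0.330 in KG1a cells. MonoMac-1 and KG1a lay close together in this ratio, THP-1 below them and HL60 above.

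The genes further 3′ kept the same split. HOXA5, a regulator of lung development and of the myeloid fate of progenitors, stood at 1.49 RPKM (1.16 to 1.88) in THP-1, 11.4 (10.8 to 12.1) in MonoMac-1, 1.56 (1.28 to 1.90) in HL60 and 14.8 (14.0 to 15.7) in KG1a. HOXA6 stood at 0.438 RPKM (0.234 to 0.747) in THP-1, 9.56 (8.84 to 10.3) in MonoMac-1, 1.42 (1.09 to 1.83) in HL60 and 11.6 (10.7 to 12.5) in KG1a. HOXA3, which the thymus and parathyroid need to form, stood at 0.0877 RPKM (0.0431 to 0.159) in THP-1, 5.57 (5.29 to 5.85) in MonoMac-1, 0.319 (0.240 to 0.416) in HL60 and 5.38 (5.07 to 5.70) in KG1a. For HOXA5 the intervals of THP-1 and HL60 overlap, and for HOXA3 those of MonoMac-1 and KG1a do. HOXA4 stood at 0.433 RPKM (0.283 to 0.634) in THP-1, 3.90 (3.58 to 4.25) in MonoMac-1, 0.212 (0.126 to 0.335) in HL60 and 1.64 (1.41 to 1.91) in KG1a, and here MonoMac-1 stood above KG1a. HOXA2, the most 3′ gene described and a patterning gene of the second branchial arch, stood at 0.0809 RPKM in THP-1 cells, 0.292 in MonoMac-1 cells, 0.0628 in HL60 cells and 1.25 (1.04 to 1.47) in KG1a, the only line in which it reached 1 RPKM.

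At the 5′ end the split turned round. HOXA11, a patterning gene of the forearm and of the uterus, stood at 12.2 RPKM (11.5 to 12.9) in THP-1, 0.393 (0.313 to 0.488) in MonoMac-1, 5.65 (5.25 to 6.07) in HL60 and 1.26 (1.10 to 1.45) in KG1a. HOXA13, a patterning gene of hands, feet and the genital tract, stood at 10.6 RPKM (9.89 to 11.3) in THP-1, 0.0149 (0.00299 to 0.0439) in MonoMac-1, 3.85 (3.51 to 4.21) in HL60 and 0.00652 (0.000165 to 0.0363) in KG1a. The MonoMac-1 and KG1a values of HOXA13 lie under the level of 3 fragments, which was 0.0152 RPKM in MonoMac-1 cells and 0.0196 in KG1a cells. HOXA11 was 0.633 of HOXA10 in THP-1 cells, 0.0215 in MonoMac-1 cells, 0.749 in HL60 cells and 0.0504 in KG1a cells, so the step from HOXA10 to HOXA11 was small in THP-1 and HL60 and large in the other two.

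HOXA11-AS1, a noncoding RNA read from the opposite strand near HOXA11, lies at chr7:27225027-27228912 in hg19, between HOXA11 and HOXA13. It stood at 10.5 RPKM in THP-1 cells, 0.190 in MonoMac-1 cells, 0.966 in HL60 cells and 1.26 in KG1a cells. THP-1 was high for both neighbours, whereas HL60 had HOXA11 without a like level of HOXA11-AS1, and KG1a had both at the same low level. Whether the counting used strand is not given in the sources used here, so reads of a gene and of an antisense partner may not have been told apart. Its annotated entry does not overlap that of HOXA11.

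HOXB genes were low outside KG1a. HOXB2, a hindbrain patterning gene, was listed at 0 in THP-1 cells and stood at 0.00774 RPKM in MonoMac-1 cells, 1.02 (0.810 to 1.27) in HL60 and 38.3 (37.1 to 39.6) in KG1a. In KG1a it was the second highest HOX gene after HOXA9, at percentile 91.7 of all symbols, while HOXB3 next to it, a gene of early blood progenitors, stood at 0.702 RPKM (0.596 to 0.821) there. HOXB3 stood at 0.984 RPKM (0.818 to 1.17) in THP-1, 0.0104 in MonoMac-1 cells and 0.0140 in HL60 cells. HOXB4, known for expanding blood stem cells, stood at 1.79 RPKM (1.50 to 2.13) in THP-1 and 0.00888 in MonoMac-1 cells and was listed at 0 in HL60 and KG1a. THP-1 thus had HOXB4 above 1 RPKM without HOXB2, and KG1a had HOXB2 and no HOXB4 above its limit of 0.0242 RPKM (3 fragments). HOXB3 was under 1 RPKM in both THP-1 and KG1a, with overlapping intervals. Of the other HOXB genes HOXB9 had the highest value. It was listed at 0 in both THP-1 and MonoMac-1 and stood at 0.627 RPKM (0.499 to 0.777) in HL60 and 0.00607 in KG1a cells. HOXB5 and HOXB6 share positions with the noncoding entry LOC404266, and HOXC5 with MIR615, both listed at 0 in every line, so the split of reads there is uncertain. The microRNA entry MIR10A, between HOXB4 and HOXB5, stood at 0.0680 RPKM in THP-1 cells and was listed at 0 in the other 3 lines.

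HOXC and HOXD messages came from HL60, and mostly from 1 gene in each cluster. HOXC10, a gene of lumbar spinal cord and hindlimb patterning, stood at 0.228 RPKM (0.129 to 0.372) in THP-1, was listed at 0 in MonoMac-1 cells, and stood at 10.1 RPKM (9.47 to 10.7) in HL60 and 0.0167 in KG1a cells. It was the highest HOX gene of HL60, above HOXA10. HOXC6 stood at 0.0513 RPKM in THP-1 cells, was listed at 0 in MonoMac-1 cells, and stood at 1.40 RPKM (1.15 to 1.68) in HL60 and 0.0292 in KG1a cells. HOXC8, which acts in rib and motor neuron patterning, stood at 0.806 RPKM (0.649 to 0.990) in HL60 and was listed at 0 in the other 3 lines. All 9 HOXC genes were above 0 in HL60 cells, and all 9 were listed at 0 in MonoMac-1 cells, the deepest library. The long noncoding RNA HOTAIR, within HOXC, stood at 0.0179 RPKM in THP-1 cells and 0.0587 in HL60 cells and was listed at 0 in MonoMac-1 and KG1a, so it did not share the level of HOXC10.

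HOXD13, the digit-patterning gene at the 5′ end of HOXD, was listed at 0 in both THP-1 and MonoMac-1 and stood at 8.47 RPKM (7.95 to 9.02) in HL60 and 0.102 (0.0564 to 0.170) in KG1a. The intervals of these values listed at 0 reach 0.0456 RPKM in THP-1 cells and 0.0202 in MonoMac-1 cells. The level of 3 fragments was 0.0371 RPKM in THP-1 cells and 0.0164 in MonoMac-1 cells. The other 8 HOXD genes stood at 0.147 RPKM or less in HL60, the highest being HOXD9. HOXD12, next to HOXD13, stood at 0.0717 RPKM (0.0141 to 0.214) in HL60 and 0.128 (0.0484 to 0.272) in KG1a, with overlapping intervals. HL60 thus had the 13th paralogs of HOXA and HOXD at 3.85 and 8.47 RPKM, with HOXC13 at 0.254 and HOXB13 listed at 0. The 250 bases before the HOXD13 start are shown because HOXD13 is the HOXD gene above 1 RPKM.
HOXD13, chr2:176092471-176092720, + strand: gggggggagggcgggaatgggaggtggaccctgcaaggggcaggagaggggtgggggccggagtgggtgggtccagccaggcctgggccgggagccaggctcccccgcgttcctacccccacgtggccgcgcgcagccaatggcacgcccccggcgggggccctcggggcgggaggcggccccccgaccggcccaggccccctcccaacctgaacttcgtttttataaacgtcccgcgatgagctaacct
None of the 3 motifs occurs in this window, and its CpG count is 21. It is from RefSeq on GRCh38.p14.

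HL60 and KG1a were set side by side because HL60 held low levels of many KG1a genes. Outside HOX, 71 genes were at 20 RPKM or more in KG1a and under 1 RPKM in THP-1 and MonoMac-1. Over the 65 of them with HL60 below 0.1 of KG1a, the median HL60 level was 2.71% of that in KG1a (quartiles 2.56 and 3.16%). The cap on HL60 limits how high that median could be. Of the 10 HOX genes at 1 RPKM or more in KG1a, 3 had this percentage inside their counting interval, which is a description and no test. Of the 3, HOXB2 has the levels that chose the 65 genes, and HOX genes were kept out of that set. HOXA9 in HL60 was 2.84% (2.51 to 3.20) of KG1a, HOXB2 was 2.66% (2.11 to 3.31) and HOXA2 was 5.04% (1.75 to 11.3). The other 7 lay above it. HOXA3 stood at 5.94% (4.47 to 7.73) and HOXA5 at 10.6% (8.61 to 12.8). HOXA7 stood at 17.6% (16.2 to 19.2), HOXA10 at 30.1% (28.4 to 31.8) and HOXA11 at 447% (416 to 481).

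With 2.71% of the KG1a level taken off, HL60 kept 0.121 RPKM of HOXA9 and 0 of HOXB2. It kept 4.60 RPKM of HOXA7, 6.87 of HOXA10, 5.62 of HOXA11, 3.85 of HOXA13, 10.1 of HOXC10 and 8.47 of HOXD13. HL60 then had 9 HOX genes at 1 RPKM, against 11 before, and its HOX message lay in HOXA5 to HOXA7, HOXA10 to HOXA13, HOXC6, HOXC10 and HOXD13. The 10 HL60 percentages had a median of 11.4. Whether the HOXA9 and HOXB2 reads in the HL60 library came from KG1a material or from HL60 cells was not tested. CD34, which marks KG1a, was at 12.9 RPKM in HL60 cells and 494 in KG1a cells. It meets the rules that chose the genes behind the 2.71%, so it is not separate from that share.

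**Figure D4:**
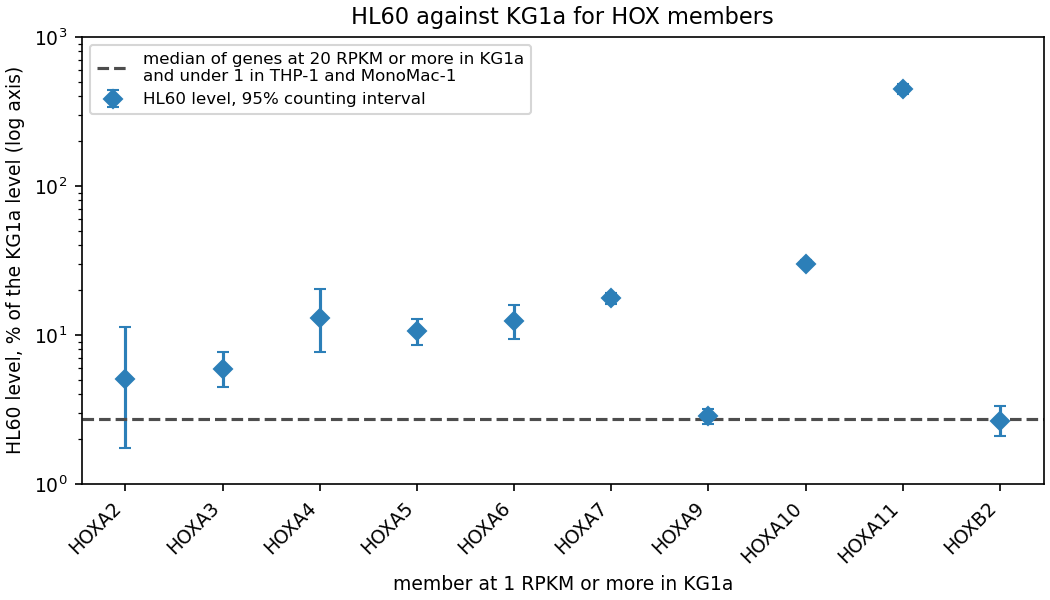
Points give the HL60 level as a percentage of the KG1a level (y axis, log scale) for the 10 HOX genes at 1 RPKM or more in KG1a (x axis), with 95% counting intervals, and the dashed line is the median of the 65 KG1a genes, 2.71%. HOXA9, HOXB2 and HOXA2 have the line within their intervals, and HOXA11 stands at 447%.

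The lines with MLL-AF9 were compared with those without it to ask whether the fusion lines share a HOX pattern. No HOX gene was at least 4-fold higher on the RPKM + 1 scale in both THP-1 and MonoMac-1 than in both HL60 and KG1a, where 1.39% of the 12976 measured symbols were, and none was 4-fold lower, where 0.331% were. By any margin of the listed values HOXB4 was higher in both fusion lines (22.1% of measured symbols were). HOXB2 and HOXD13 were lower in both (19.6% were). HOXB2 was lower through its 1.02 RPKM in HL60 cells, and with the KG1a share removed from HL60 only HOXD13 was lower in both (17.1% of symbols were). HOXB4 separated the pairs by 0.00888 RPKM in MonoMac-1 cells, against values listed at 0 in both other lines. That MonoMac-1 value lay under its limit of 0.0188 RPKM. The intervals of the values listed at 0 reached 0.0368 RPKM in HL60 cells and 0.0297 in KG1a cells. An order of MonoMac-1 against those lines was thus not detectable for HOXB4. HOXD13 separated the pairs by values listed at 0 in both fusion lines, against 0.102 RPKM in KG1a cells. Left-out lines changed these counts. Without KG1a, HOXA9 was 4-fold higher in both fusion lines (2.44% of measured symbols were) and HOXC10 and HOXD13 were 4-fold lower (0.894%). Without HL60, HOXB2 was 4-fold lower (3.75%). Each of these sets the fusion lines against 1 line. The median difference of the 10 HOXA genes was 0.01 on the log2(RPKM + 1) scale, and that of all measured symbols was 0.02.

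In limma over all measured symbols, with Benjamini-Hochberg adjustment, 0 of the 15 measured HOX genes were called, as were 0% of all symbols at an adjusted p of 0.05. At an unadjusted p under 0.05 there were 0 HOX genes, against 8.55% of all symbols. The lowest p of a HOX gene in limma was 0.0789 for HOXB2, which differed by -3.15 ± 1.43 (log2, SE, 4 lines) with an adjusted p of 0.642. Without HL60 the HOXB2 difference was -5.29, without KG1a it was -1.01, and with 0.1 RPKM added it was -5.98. HOXA9 differed by 1.19 ± 1.55 with an adjusted limma p of 0.838, and without HL60 the difference was -1.16. HOXC10 differed by -1.60 ± 1.19 with an adjusted limma p of 0.747, and the difference was 0.12 without HL60. HOXD13 differed by -1.69 ± 1.09, with an adjusted limma p of 0.735, and the difference was -0.14 without HL60 and -3.24 without KG1a. The lowest adjusted p of any symbol was 0.0724. These p-values measure the spread between 4 lines, with 2 lines in each group, and a p above the threshold does not show that the groups are alike.

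The lines were also set side by side in pairs. At 4-fold on the RPKM + 1 scale, 6 of the 38 differed between THP-1 and MonoMac-1 (2.55% of all symbols did). HOXA11 and HOXA13 were higher in THP-1, and HOXA3, HOXA5, HOXA6 and HOXA7 were lower in it. Between the other pair, HL60 and KG1a, 9 differed (6.11% of all symbols). HOXA13, HOXC10 and HOXD13 were higher in HL60, and HOXA3, HOXA5, HOXA6, HOXA7, HOXA9 and HOXB2 were lower in it.

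Across the fusion groups, pairs differed in 1 to 9 genes. Between THP-1 and HL60, 3 differed (4.27% of all symbols), with HOXA9 higher in THP-1 and HOXC10 and HOXD13 lower. Between THP-1 and KG1a, 7 differed (7.08%), with HOXA11 and HOXA13 higher in THP-1 and HOXA3, HOXA5, HOXA6, HOXA7 and HOXB2 lower. Between MonoMac-1 and HL60, 9 differed (4.02%), with HOXA3, HOXA4, HOXA5, HOXA6 and HOXA9 higher in MonoMac-1 and HOXA11, HOXA13, HOXC10 and HOXD13 lower. Between MonoMac-1 and KG1a, HOXB2 alone differed, lower in MonoMac-1 (7.33%). The pairs across the groups share lines with each other, were added after the values were seen, and have no test. With 0.1 RPKM added in place of 1 RPKM, which gives more weight to values near 0, more HOX genes and more of all symbols passed 4-fold. The count was then 9 between THP-1 and MonoMac-1 (7.18% of all symbols), 11 between THP-1 and HL60 (10.8%) and 9 between THP-1 and KG1a (14.6%). It was 15 between MonoMac-1 and HL60 (10.1%), 2 between MonoMac-1 and KG1a (14.5%) and 17 between HL60 and KG1a (12.7%).

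MonoMac-1 and KG1a were the closest pair over the HOXA cluster by the median difference, though not for each gene. The median absolute difference over the 10 HOXA genes, on the log2(RPKM + 1) scale, was 0.41 between MonoMac-1 and KG1a and 0.87 between THP-1 and HL60. It was 2.46 between THP-1 and MonoMac-1, 2.55 between THP-1 and KG1a, 2.19 between MonoMac-1 and HL60 and 2.27 between HL60 and KG1a. The intervals of MonoMac-1 and KG1a overlap for HOXA3 and HOXA13 and not for the other 8 genes, among them HOXA2 and HOXA11, higher in KG1a, and HOXA4, higher in MonoMac-1. Pearson's r over these 10 genes was 0.97 for MonoMac-1 with KG1a, 0.75 for THP-1 with HL60 and 0.20 to 0.31 for the other 4 pairs. These correlations are across 10 neighbouring genes of 1 cluster, which are not independent replicates, and each line enters 3 of the 6 pairs. Each of the 2 close pairs joins a fusion line to a line without the fusion.

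Single lines also stood apart. HOXB2 in KG1a and HOXC10 and HOXD13 in HL60 were at least 8-fold above the highest of the other 3 lines on the RPKM + 1 scale. These are 3 of the 15 measured HOX genes, beside 2.14% of all measured symbols. No HOXA gene met this size rule. With 0.1 RPKM added, 5 HOX genes met it, the same 3 with HOXB4 in THP-1 and HOXC6 in HL60, beside 5.95% of measured symbols.

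HOX proteins act with cofactors of the MEIS, PBX and PKNOX families, and the list of these held 9 genes, 5 of them measured. None was 4-fold higher or lower in both fusion lines, and the list's median difference was 0.03 on the log2(RPKM + 1) scale. MEIS1, the partner of HOXA9 in leukemia, was 8-fold above the other lines in MonoMac-1. It stood at 0.0226 RPKM in THP-1 cells, 18.6 in MonoMac-1 cells, 0.0186 in HL60 cells and 0.480 in KG1a cells. MonoMac-1 therefore had HOXA9 and MEIS1 both high, THP-1 and KG1a had HOXA9 with little MEIS1, and HL60 was low in both. The other measured cofactors are given here after their values were seen. PBX3 stood at 57.5 RPKM in THP-1 cells and 51.4 in MonoMac-1 cells, against 2.96 in HL60 cells and 18.6 in KG1a cells. MEIS2 stood at 3.04 RPKM in THP-1 cells and 1.02 in MonoMac-1 cells, against 5.68 in HL60 cells and 30.9 in KG1a cells. PBX2 lay between 19.4 and 38.9 RPKM and PKNOX1 between 4.31 and 6.25 RPKM over the 4 lines.

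Of 34 listed chromatin regulators of HOX genes in the tables, such as MLL, menin, DOT1L, Polycomb and Trithorax proteins and CDX factors, 32 were measured. None was 4-fold higher or lower in both fusion lines or 8-fold above the other 3 lines, and the median difference was -0.23. CDX2, an activator of HOX genes in embryos, was singled out after its values were seen. It stood at 0.0138 RPKM in THP-1 cells, 0.00569 in MonoMac-1 cells and 1.31 in HL60 cells and was listed at 0 in KG1a cells. HL60 was thus the line with CDX2 and with HOXC10 and HOXD13, and whether these belong together was not tested.

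Other transcripts inside or beside the clusters were mostly at or near 0. Of 34 transcripts on the list, 11 were matched in the tables and MIR196B, a microRNA gene between HOXA9 and HOXA10, was the 1 of them measured. HOXA11-AS1, described above, was matched by position and is not on the list. MIR196B stood at 2.73 RPKM in THP-1 cells, 3.67 in MonoMac-1 cells, 0.547 in HL60 cells and 6.15 in KG1a cells, listed in the order of HOXA9. These values rest on an entry far shorter than a gene and were given no counting interval. Whether their order exceeds counting error is therefore not shown. Beyond the clusters, the homeobox genes EVX1 (by HOXA) and EVX2 (by HOXD) were under 0.04 RPKM in every line, as were SKAP1 and TTLL6 on either side of HOXB. The nearest expressed neighbours of HOXD, MTX2 and KIAA1715, were present in all 4 lines and highest in HL60. MTX2 stood at 11.4 RPKM in THP-1 cells, 22.8 in MonoMac-1 cells, 31.7 in HL60 cells and 15.6 in KG1a cells, and KIAA1715 at 5.73 RPKM in THP-1 cells, 5.42 in MonoMac-1 cells, 19.9 in HL60 cells and 14.8 in KG1a cells. The flank of HOXB beyond HOXB13 held expressed genes too, and CALCOCO2 and ATP5G1 there were also highest in HL60. CALCOCO2 stood at 27.1 RPKM in THP-1 cells, 16.6 in MonoMac-1 cells, 52.7 in HL60 cells and 20.5 in KG1a cells. ATP5G1 stood at 104 RPKM in THP-1 cells, 131 in MonoMac-1 cells, 172 in HL60 cells and 116 in KG1a cells. UBE2Z lay between 27.2 and 32.2 RPKM. Beyond HOXC, SMUG1 stood at 8.46 RPKM in THP-1 cells, 12.7 in MonoMac-1 cells, 6.46 in HL60 cells and 4.10 in KG1a cells. CBX5, further out, stood at 44.0 RPKM in THP-1 cells, 27.6 in MonoMac-1 cells, 14.2 in HL60 cells and 23.8 in KG1a cells.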

How the data were processed

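Total RNA of 4 leukemia lines, 1 library each, was sequenced on Illumina libraries. Per the submitters' processing notes the reads were handled with CASAVA 1.8.2 on hg19. The deposited tables give, for each gene entry, RPKM made by the authors and a coverage signal in bases, also deposited, both without a header, so the unit of coverage was read from its values. The tables hold 21893 entries and 21865 symbols, and of 28 duplicate entries the one with the highest mean was kept. Differences are on log2(RPKM + 1), pseudocount 1, since the values are not counts, so they understate changes of low genes. limma 3.58.1 (R 4.3.3, trended prior) was fitted to all symbols at 1 RPKM or more in at least 1 line. It set THP-1 and MonoMac-1 against HL60 and KG1a. The code was run on simulated data with a spread of the size of replicate cultures. That spread is not the one between lines, so the simulation does not show what this design could detect. Size rules of 4-fold and 8-fold were used where there is no replicate. Poisson intervals (scipy 1.17.1, 95%) count 200 bases as 1 fragment; low coverage values were multiples of 100 in 44.6% of cases in THP-1 cells, 9.99% in MonoMac-1 cells, 46.7% in HL60 cells and 41.5% in KG1a cells. Every member at 1 RPKM or more in at least 1 line is named. From the lists of cofactors, chromatin regulators and other transcripts, those passing a size rule are named, with exceptions stated where they occur. Of the cell type markers that passed a size rule, only some are named. The members and lists were chosen with earlier results of these data known. One further HOX symbol of the tables is not a member and is not reported here. Alternatives changed the scaling, pseudocount, filter, detection level, duplicate entry, size rule and lines included, and took the KG1a share off HL60. Promoters came from RefSeq on GRCh38.p14.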

Additional observations from a re-analysis of the deposited data

How the results depend on the processing

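Of 156 alternative values for 31 results, 122 stayed the same by direction, call or size, 32 moved and 2 changed sign. Part of this tally could not come out otherwise. A 4-fold or 8-fold gap on the RPKM + 1 scale needs a gene above 1 RPKM. Dropping that filter therefore could not change those counts. The labels of the median HL60 percentage and of the HOXB4 interval at a smaller fragment were assigned, not computed. HOX genes at the detection level numbered 4 in THP-1 at both 2 and 5 RPKM (46.6% and 37.0% of all symbols), and 7 and 5 in HL60 (43.9% and 35.2%). Genes 4-fold higher in both MLL-AF9 lines became 1 by any margin, and 0 to 1 with each line left out. Genes 4-fold lower became 1 at 2-fold (1.58% of measured symbols), 2 by any margin (1 with the KG1a share also taken off HL60, chosen after seeing the data), 1 with a pseudocount of 0.1 (1.09%), and 0 to 2 with each line left out. With each line left out, 1 group holds a single line. With that pseudocount the 8-fold count became 5, and the 4-fold counts became 11 between THP-1 and HL60, 15 between MonoMac-1 and HL60, 2 between MonoMac-1 and KG1a, and 17 between HL60 and KG1a, the last set chosen after seeing the data. With each line left out the limma difference ranged from -1.16 to 3.54 for HOXA9, from -3.32 to 0.12 for HOXC10, from -5.29 to -1.01 for HOXB2 and from -3.24 to -0.14 for HOXD13, the reversals coming without HL60. Under median-of-ratios scaling the HOXA sum was 76.6 RPKM in THP-1 cells, 129 in MonoMac-1 cells and 182 in KG1a cells. Without its highest gene it was 45.6 RPKM in THP-1 cells, 72.7 in MonoMac-1 cells, 21.2 in HL60 cells and 91.9 in KG1a cells, the HOXB sum was 1.37 in THP-1 cells, 1.25 in HL60 cells and 0.723 in KG1a cells, and in HL60 the HOXC sum was 3.25 and the HOXD sum 0.267. With the KG1a share taken off HL60 its HOXA sum was 23.7 RPKM, its HOXB sum 1.23, and the median HL60 percentage 8.72. No HOX gene was called by limma under any alternative, while over all symbols 0 were called in the reported test and 11 with a filter of 5 RPKM. The number at an unadjusted p under 0.05 was 0 to 6, the 6 coming without KG1a, when 10.8% of all symbols passed and HL60 stood alone in its group, its spread taken from the other lines. The cause of these shifts was not tested beyond what each step removes. At or under the level of 3 fragments, 0.0105 to 0.106 RPKM by gene and line, an order between lines was not detectable at this depth. No paired analysis was possible because each line has 1 library.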
